A study of Mus musculus with 2 samples.

Results

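The 9 genes described here act together in meiotic strand exchange: Dmc1, Meiob, Spata22, Mcmdc2, Hsf2bp, Brme1, Psmc3ip, Mnd1 and Brca2. They were taken by symbol from the 42422 genes of a count table as genes with a known role in this step, with earlier results of these data known. RNA was measured in germ cells sorted by Oct4-eGFP fluorescence from E12.5 gonads of ASMU Swiss mice crossed to a reporter line on a 129svJT2 background, labelled WT. Gonads were used at once (XX 0 h and XY 0 h) or cultured with the mesonephros, which was removed before sorting. XX gonads were cultured for 24 h or 72 h in the vehicle DMSO, and XY gonads for 24 h or 72 h in DMSO, in FGFRi (BGJ398/Infigratinib, which blocks FGF receptors) or in MEKi (PD0325901/Mirdametinib, which blocks MEK1/2), each at 500 nM. All groups carried the reporter, each library came from the pooled gonads of several embryos, and a gonad in culture keeps its somatic cells, which the inhibitors also reach. There were 4 libraries in each of the 10 groups, 40 in all. In GRCm39, the build of the counts, Dmc1 lies at chr15:79445691-79489351, Meiob at chr17:25023263-25058762, Mcmdc2 at chr1:9978835-10012310, Hsf2bp at chr17:32161237-32255368 and Brme1 at chr8:84874654-84899253. Psmc3ip lies at chr11:100981704-100986276, Mnd1 at chr3:83994164-84063113 and Brca2 at chr5:150446057-150496080.

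In meiotic prophase, programmed DNA double-strand breaks are resected to single-stranded DNA. DMC1, a recombinase made only in meiosis, coats that DNA and searches the homologous chromosome for a match. BRCA2 brings DMC1 to the DNA, and in meiosis HSF2BP and its partner BRME1 help to place BRCA2 at breaks. MEIOB and SPATA22 form a complex that binds single-stranded DNA beside RPA, the heterodimer of PSMC3IP (also named HOP2) and MND1 stimulates strand invasion by DMC1, and MCMDC2 is an MCM-related protein needed for recombination between homologues. In the mouse, female germ cells enter meiosis in the foetal ovary, whereas male germ cells of the same age stop dividing in the foetal testis and begin meiosis only after birth.

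Promoter sequences are shown because several of these genes rose together in XX germ cells whereas Mnd1 did not, so that the windows of both kinds can be read side by side. RefSeq promoter windows, 250 bases before to 50 bases after an annotated start (build GRCm38.p6), were found for 7 of the 9 genes, with Brme1 listed as 4930432K21Rik, and for neither Meiob nor Mcmdc2. The windows of the recombinase, of both subunits of the HOP2-MND1 heterodimer and of Brca2 are printed in 5′ to 3′ direction of the gene, with matches to TCCCGC, the core of the motif bound by E2F factors, in capitals on either strand. Dmc1 lies at chr15:79605060-79605359 (minus strand), Psmc3ip at chr11:101095386-101095685 (minus strand), Mnd1 at chr3:84155737-84156036 (minus strand) and Brca2 at chr5:150522371-150522670 (plus strand).
Dmc1: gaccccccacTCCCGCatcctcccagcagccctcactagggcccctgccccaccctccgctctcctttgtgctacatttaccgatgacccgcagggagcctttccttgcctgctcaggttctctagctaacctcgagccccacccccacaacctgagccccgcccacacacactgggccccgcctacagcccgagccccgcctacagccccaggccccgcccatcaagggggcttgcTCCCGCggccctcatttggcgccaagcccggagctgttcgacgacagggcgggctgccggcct
Psmc3ip: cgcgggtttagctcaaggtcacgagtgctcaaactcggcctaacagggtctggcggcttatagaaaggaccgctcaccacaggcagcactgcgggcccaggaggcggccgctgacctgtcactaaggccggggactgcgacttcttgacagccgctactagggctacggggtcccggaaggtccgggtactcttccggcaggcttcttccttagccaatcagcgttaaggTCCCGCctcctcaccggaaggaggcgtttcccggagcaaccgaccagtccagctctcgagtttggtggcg
Mnd1: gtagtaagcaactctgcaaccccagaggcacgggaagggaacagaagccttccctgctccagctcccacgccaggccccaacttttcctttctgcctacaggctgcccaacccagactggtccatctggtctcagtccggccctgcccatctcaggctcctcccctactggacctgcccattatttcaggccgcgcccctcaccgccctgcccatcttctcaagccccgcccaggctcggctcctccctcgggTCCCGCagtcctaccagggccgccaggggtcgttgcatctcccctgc
Brca2: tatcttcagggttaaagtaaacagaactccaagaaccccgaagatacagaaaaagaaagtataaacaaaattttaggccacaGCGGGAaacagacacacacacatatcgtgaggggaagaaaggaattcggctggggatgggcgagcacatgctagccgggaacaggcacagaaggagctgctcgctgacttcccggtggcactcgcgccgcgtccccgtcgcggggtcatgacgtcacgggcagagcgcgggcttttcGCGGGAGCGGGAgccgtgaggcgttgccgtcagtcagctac

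All 7 windows held TCCCGC or its reverse complement, from 1 match in Hsf2bp, Brme1, Psmc3ip and Mnd1 to 3 in Brca2. The same letters stood in 20.0% of 32851 RefSeq promoter windows, and in 35.3% of the 13022 windows whose symbol is that of a gene tested here. Neither CNCCTCAG, the letters known for STRA8, nor the E-box CACGTG stood in any of the 7 windows on either strand, beside 7.94% and 7.15% of all windows. Mnd1, which was lowest in the group where the others were highest, carried the E2F letters at position 4 from its start, and the match of Dmc1 nearest its start was at position -13. These are matches of letters, with no measurement of binding.

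**Figure D1:**
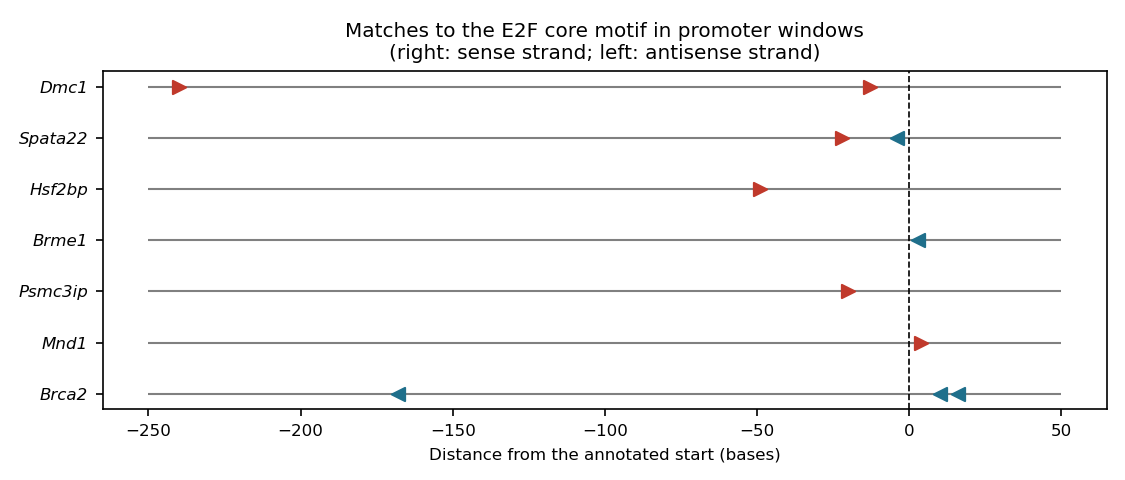
Position of each match to the E2F core TCCCGC in the 7 promoter windows, by distance from the annotated start in bases, with right-pointing marks for the sense strand and left-pointing marks for the antisense strand. The match nearest the start lies between positions -20 and 10 in 6 of the 7 genes and at -49 in Hsf2bp.

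Before the results, 3 features of the libraries bear on these genes. Total counts ran from 1178953 to 5199153 per library, and levels are given as CPM, the usual scale of counts relative to library size, here with library sizes adjusted by TMM factors. Pool 2 of library preparation was made up of the 72 h groups and XY 24 h FGFRi, and pool 1 of all the rest, at 20 libraries each, so that 72 h against an earlier time, or 24 h FGFRi against 24 h DMSO, cannot be told apart from the pools. In addition, 16 pool 1 libraries had the same sample index as a pool 2 library, and XX 24 h DMSO libraries held 88 counts of 4 Y-linked genes (Ddx3y, Eif2s3y, Kdm5d and Uty) where their XY 72 h FGFRi index partners held 2097, or 4.20%. The index partners of XX 0 h were XX 72 h DMSO libraries, and 4.20% of the partners' counts would make up 37.9% of the Dmc1 counts and 47.2% of the Meiob counts of XX 0 h. The share, 3.28% to 5.42% by library, was measured in XX 24 h DMSO only, and other sources of Y-linked counts were not tested. It was subtracted from the 16 pool 1 libraries, with no subtraction in pool 2. Values with that share subtracted, an alternative chosen after seeing the data, are given beside each printed fold of the members, Stra8 and the listed genes that they move by over 1.5 times and beside some smaller moves.

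The cells carried germ cell markers (Ddx4, Dazl, Pou5f1, Dppa3, Dnd1 and Mael), which summed to 2089 to 5640 CPM in each library. Of the 6, Mael was called higher and Pou5f1, Dppa3 and Dnd1 lower in XX 72 h DMSO than in XX 0 h. Markers of other gonadal cells varied between groups. The 5 interstitial and mesonephric markers summed to 13.9 to 32.2 CPM in XX 0 h and 47.5 to 74.3 CPM in XX 72 h DMSO, and the 2 granulosa markers to 1.11 to 7.72 and 8.26 to 23.0 CPM, with Nr2f2, Wt1 and Foxl2 called higher at 72 h. Sertoli markers summed to between 1.40 and 11.2 CPM in those 2 groups, and 1 of the 3 was at 0 in each. Endothelial markers summed to 101 to 128 CPM at XX 0 h and 5.16 to 9.70 CPM at XX 72 h. Nearly all of the first sum was Pecam1, at a mean of 112 CPM and called lower at 72 h, while Cdh5, Kdr and Tek had means of 0.658, 0.465 and 0.611 CPM at XX 0 h. The part of these markers in the results was not tested. In sorted pools, fewer cells with a transcript and less of it per cell cannot be told apart.

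Of the 9 genes, 8 passed the filter on low counts and were tested among 15252 genes by limma against a fold change of 1.5, with a false discovery rate (FDR) under 0.05 as the call. Overlap of libraries between groups is described for the named genes only, and the share of all tested genes without overlap is not given. Spata22 did not pass and was described by its counts. It had 19 counts in all 40 libraries, of which 15 were in XX 72 h DMSO, at 1, 5, 5 and 4 per library. The other counts were 1 in an XY 24 h FGFRi, 2 in an XY 72 h FGFRi and 1 in an XY 72 h DMSO library. All 4 XX 72 h libraries held Spata22, and 3 of the other 36 did. Over the group this is 2.12 CPM without TMM scaling (exact Poisson interval 1.19 to 3.49, counting error only), and 0 in the 4 XY 72 h MEKi libraries allows up to 0.221 CPM at a floor of 3 counts, or 0.272 CPM as the upper end of the same exact Poisson interval. Its exons at chr11:73217403-73237449 (GRCm39) overlap those of the readthrough gene Gm49340 on the same strand, and the part of that overlap in its low count was not tested.

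**Figure D2:**
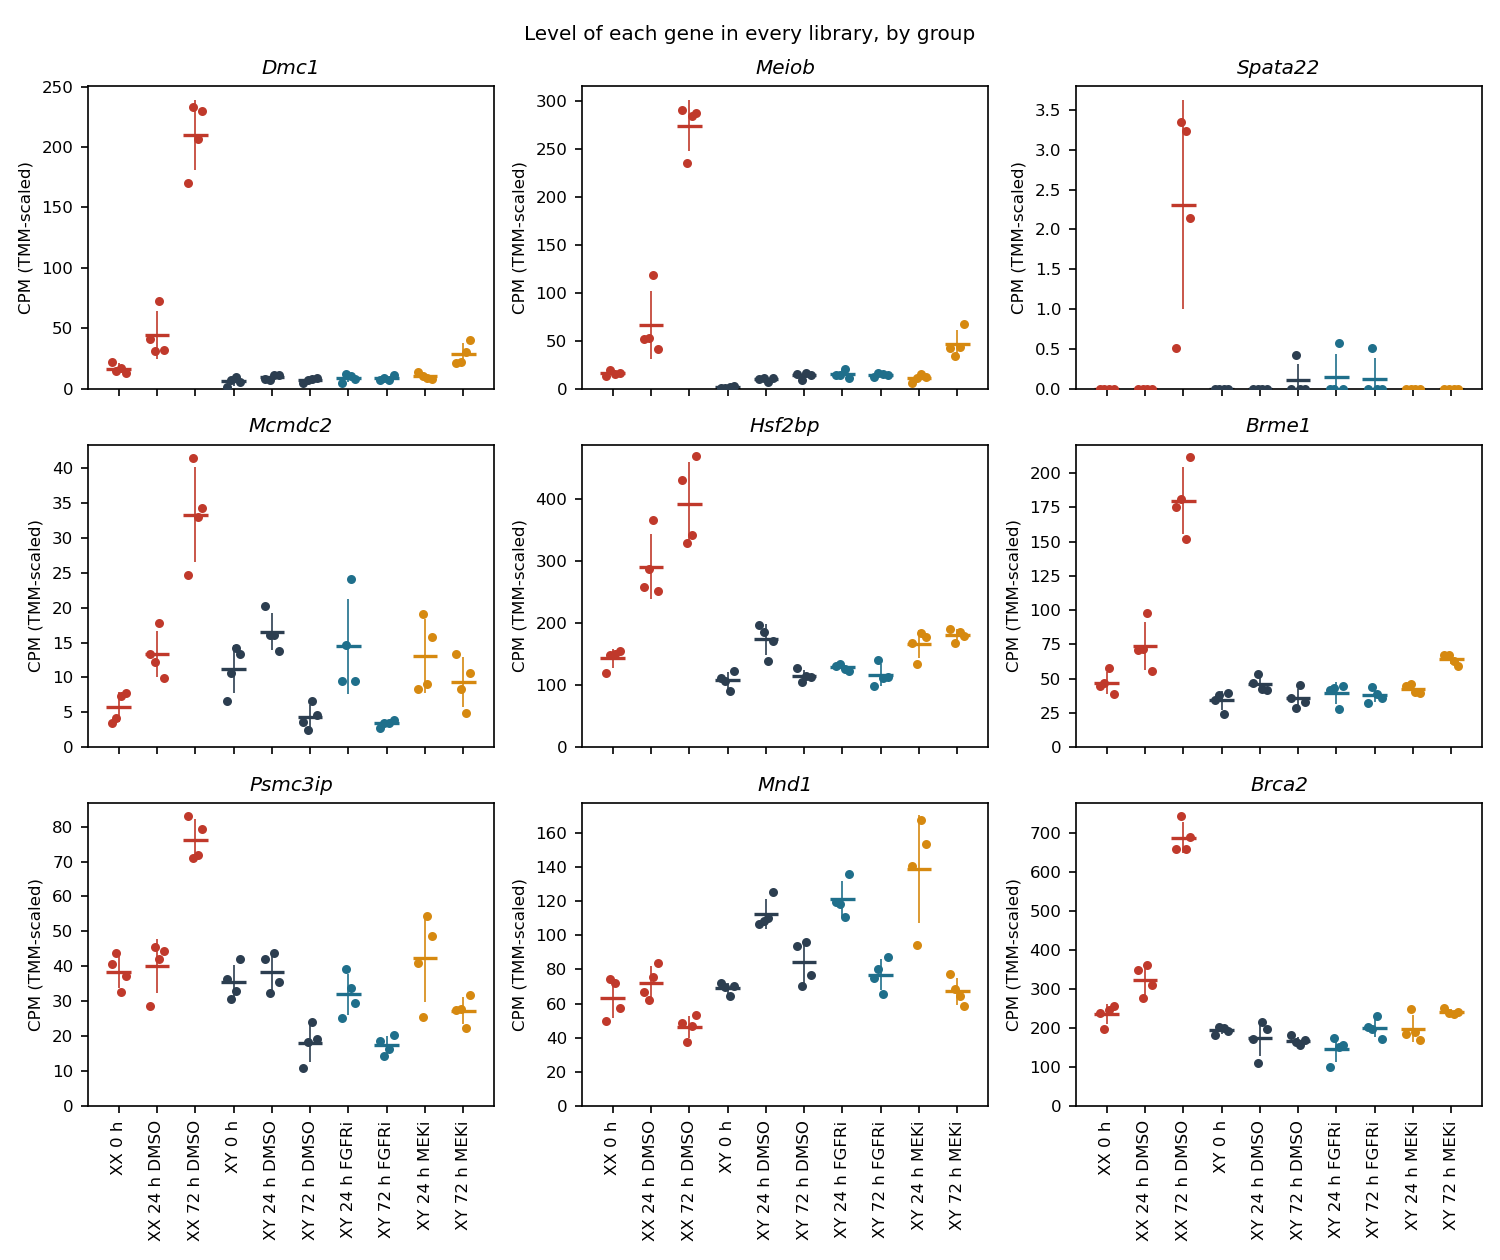
Level of each of the 9 genes in CPM (TMM-scaled, linear axes from 0) in the 10 groups, with 1 point per library, the group mean as a horizontal line and the SD as a vertical line (n = 4). XX 72 h DMSO stands highest for 8 genes and lowest for Mnd1.

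The first question was when these genes rise as XX germ cells move towards meiosis. From 0 h to 72 h of culture, 7 of the 8 tested genes rose in XX germ cells, and Mnd1 did not pass the test. Of all tested genes, 18.8% rose in that comparison. The median log2 fold change was 1.73 over the 8 genes and -0.01 over all genes.

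Dmc1 was at 22.4, 14.3, 17.1 and 12.5 CPM in the XX 0 h libraries, 41.4, 31.2, 72.8 and 31.5 CPM in XX 24 h DMSO, and 170.4, 233, 206 and 229.7 CPM in XX 72 h DMSO. The 3 times did not overlap. The rise was 13.6-fold from 0 h to 72 h (log2 fold change 3.77, SE 0.20, FDR 5.46e-20 by limma) and 21.8-fold with the index share subtracted. Most of it came between 24 h and 72 h, the longer interval, at 5.39-fold (FDR 4.05e-13 by limma). The first 24 h gave 2.53-fold (FDR 0.033 by limma). The early call was lost when any of 5 libraries was left out (XX 0 h replicates 3, 4 and 5 and XX 24 h replicates 4 and 6), with FDR from 0.061 to 0.23, or when the filter was left out (FDR 0.22), and stood at 4.05-fold (FDR 0.000179 by limma) with the index share subtracted.

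Meiob, the single-strand binding partner of SPATA22, had 12.6, 19.7, 15.5 and 16.4 CPM at XX 0 h, 51.3, 52.5, 118 and 41.5 CPM at 24 h and 291, 235, 284 and 287 CPM at 72 h. Again no library of one time reached into the next. Meiob rose 3.29-fold in the first 24 h (FDR 0.000282 by limma), or 6.31-fold with the index share subtracted (FDR 1.29e-06 by limma), and 5.09-fold from 24 h to 72 h (FDR 8.68e-14 by limma). Over the whole 72 h the rise was 16.8-fold (FDR 1.20e-21 by limma, log2 fold change 4.07, SE 0.20), or 32.3-fold without the index share. XX 24 h replicate 6 was the highest of its group for 6 of the 8 tested genes (Dmc1, Meiob, Mcmdc2, Hsf2bp, Brme1 and Brca2).

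Mcmdc2 was at 3.50 to 7.80 CPM in XX 0 h, 9.98 to 17.8 CPM at 24 h and 24.8, 41.5, 33.0 and 34.3 CPM at 72 h. It rose 5.04-fold from 0 h to 72 h (FDR 1.20e-06 by limma) and 2.55-fold from 24 h to 72 h (FDR 0.014 by limma, 0.095 without XX 24 h replicate 9), whereas its 1.97-fold difference in the first 24 h did not pass (FDR 0.83 by limma).

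Brca2, the loader of DMC1, was at 238, 198, 244 and 257 CPM in XX 0 h, 349, 276, 360.2 and 310.1 CPM at 24 h and 659.7, 744, 659 and 689 CPM at 72 h. These ranges did not overlap. It rose 2.89-fold over 72 h (FDR 1.00e-10 by limma, log2 fold change 1.53, SE 0.11), with 1.34-fold in the first 24 h (FDR 1.00 by limma) and 2.15-fold after that (FDR 0.000178 by limma). Of the proteins that place BRCA2 at meiotic breaks, Hsf2bp went from 119.6 to 154 CPM at 0 h to 251 to 366 CPM at 24 h and 329 to 468 CPM at 72 h, so that its last 2 times overlapped. Its 72 h level was 2.69-fold above 0 h (FDR 3.38e-09 by limma). The first 24 h gave 1.91-fold (FDR 0.057 by limma), which passed by edgeR (FDR 0.0032), by DESeq2 (FDR 0.037) and with the index share subtracted (2.06-fold, FDR 0.0078 by limma) or without XX 24 h replicate 9 (FDR 0.034 by limma). Brme1 went from 38.7 to 57.4 CPM at 0 h to 55.9 to 97.6 CPM at 24 h and 152 to 211 CPM at 72 h, and rose 3.83-fold over 72 h (FDR 7.47e-13 by limma) with 2.57-fold between 24 h and 72 h (FDR 4.39e-06 by limma).

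The subunits of the HOP2-MND1 heterodimer differed. Psmc3ip had 40.6, 43.6, 32.6 and 37.1 CPM at XX 0 h, 28.6, 45.4, 42.1 and 44.3 CPM at 24 h and 83.1, 70.9, 71.8 and 79.2 CPM at 72 h, so that only the last group stood apart. It rose 2.05-fold over 72 h (FDR 0.010 by limma, 0.068 without XX 0 h replicate 4 and 0.054 without the filter). Mnd1 had 49.7, 74.5, 71.8 and 57.4 CPM at 0 h, 66.6, 61.9, 75.8 and 83.8 CPM at 24 h and 48.5, 37.5, 46.6 and 53.0 CPM at 72 h. Its 72 h libraries lay below every 24 h library and overlapped those at 0 h, and the log2 fold change of -0.43 over 72 h (95% interval -0.75 to -0.12) did not pass (FDR 1.00 by limma). Within a library the ratio of Psmc3ip to Mnd1 counts, which no scaling changes, was 0.63 ± 0.15 at XX 0 h (SD, n = 4), 0.56 ± 0.13 at XX 24 h and 1.66 ± 0.18 at XX 72 h, and its highest value outside XX 72 h was 0.82 in any of the other 36 libraries.

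By interval, 2 of the 8 genes rose in the first 24 h (Dmc1 and Meiob), beside 2.32% of all tested genes. Between 24 h and 72 h 5 rose (Dmc1, Meiob, Mcmdc2, Brme1 and Brca2), beside 10.3% of all tested genes. With the replicate number added to the model as a block, 1 was called in the first interval and 2 in the later one. Psmc3ip had 1.95-fold in the later interval (FDR 0.065 by limma) and passed by edgeR and DESeq2, and by limma without XX 24 h replicate 5 (FDR 0.039) or XX 72 h replicate 8 (FDR 0.042). Of the markers Mael was called higher in the first interval, and the markers called from 0 h to 72 h were also those called in the later interval.

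The second question was how XX and XY germ cells differed at each time. Meiob, with 0.877, 1.04, 1.78 and 2.74 CPM in the XY 0 h libraries, was already 10.3-fold higher in XX at 0 h (log2 fold change 3.36, SE 0.53, FDR 0.000162 by limma), and 7.39-fold higher with the index share subtracted (FDR 0.021). It was the single member called at 0 h, where 1.65% of all tested genes were higher in XX. Dmc1 was at 1.32 to 9.80 CPM in XY 0 h, below every XX 0 h library. Its difference of 2.85-fold (FDR 0.15 by limma) passed by edgeR (FDR 0.022) and not by DESeq2 (FDR 0.095), and became 1.99-fold with the index share subtracted. After that subtraction the sexes overlapped at 0 h for both genes, with Dmc1 at 7.56 to 12.7 CPM in XX and 0.901 to 9.38 CPM in XY, and Meiob at 2.23 to 10.8 and 0.450 to 2.34 CPM. No listed marker was called between the sexes at 0 h.

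At 24 h in DMSO, Dmc1 (3.79-fold, FDR 0.000301 by limma) and Meiob (5.43-fold, FDR 5.09e-07 by limma) were higher in XX, 2 of 8 beside 5.99% of all tested genes. Brca2 was 1.78-fold higher in XX, with no overlap between groups, and did not pass (FDR 0.18 by limma). It passed by edgeR (FDR 0.020) and not by DESeq2 (FDR 0.13), and passed by limma without XY 24 h DMSO replicate 4 (FDR 0.044). Mcmdc2 (13.4 ± 3.30 CPM in XX and 16.6 ± 2.67 CPM in XY) and Psmc3ip (40.1 ± 7.77 and 38.3 ± 5.37 CPM) overlapped between the sexes. Mnd1 lay higher in every XY library, at 113 ± 8.66 against 72.0 ± 9.75 CPM (log2 fold change -0.68 for XX against XY, FDR 0.86 by limma). The Sertoli marker Sox9 (means 2.40 CPM in XX and 24.0 CPM in XY) and Dppa3 were called lower in XX and Mael higher, and their part was not tested.

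By 72 h in DMSO, 7 of the 8 genes were higher in XX, and 18.1% of all tested genes were. Dmc1 was at 4.92, 6.69, 7.99 and 8.63 CPM in XY, 30.1-fold below XX (log2 fold change 4.91, SE 0.32, FDR 2.92e-17 by limma). Meiob was at 14.8, 9.20, 16.0 and 14.6 CPM in XY, 20.8-fold below XX (FDR 1.21e-19 by limma). The other XX to XY folds were 7.69 for Mcmdc2, 5.07 for Brme1, 4.59 for Psmc3ip, 4.06 for Brca2 and 3.41 for Hsf2bp, each with FDR of 2.81e-07 or less by limma. All 7 stood above XY in 4 of 4 libraries, and the share of all tested genes that did so is not given. Mnd1 was again the exception, at 46.4 ± 6.53 CPM in XX and 84.3 ± 12.6 CPM in XY, without overlap (log2 fold change -0.82, 95% interval -1.14 to -0.50, FDR 0.16 by limma). It passed by edgeR and not by DESeq2. Both 72 h groups were in pool 2, so this comparison lies within a pool. Of the markers, Foxl2 (means 9.41 CPM in XX and 0.714 CPM in XY), Wt1 (23.4 and 6.33 CPM) and Nr5a1 (7.48 and 2.01 CPM) were called higher in XX. Tcf21, Cdh5, Alas2 and the germ cell markers Pou5f1, Dppa3 and Dnd1 were called lower in XX, and the part of these markers was not tested.

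The XX rise from 0 h to 72 h was set against that in XY by an interaction term, in which an additive difference between pools cancels. It passed for 6 of 8 genes with a larger change in XX, beside 12.9% of all tested genes. The difference in log2 fold change was 3.71 for Mcmdc2, 3.40 for Dmc1, 2.09 for Psmc3ip, 1.96 for Brme1, 1.75 for Brca2 and 1.34 for Hsf2bp, with FDR from 6.29e-08 to 0.000194 by limma. Meiob gave 1.02 (95% interval -0.16 to 2.19, FDR 0.46 by limma) and Mnd1 -0.71 (FDR 0.51 by limma). Of the markers Nr2f2 and Nr5a1 were called with a positive term and Pou5f1, Dppa3 and Dnd1 with a negative one, and their part was not tested.

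In XY germ cells in DMSO, Meiob was above its 0 h level at both later times, Mcmdc2 and Psmc3ip fell between 24 h and 72 h, and no other member was called. Meiob was at 10.4, 11.5, 6.88 and 10.8 CPM after 24 h, above all XY 0 h libraries. It was 6.24-fold above 0 h at 24 h (FDR 0.014 by limma), the single call among 8, beside 1.61% of all tested genes that rose, and the call was lost without XY 0 h replicate 2 (FDR 0.063) or 3 (FDR 0.20). At 72 h it was 8.28-fold above 0 h (FDR 0.000111 by limma), again the single gene called, where 20.2% of all tested genes rose. Between 24 h and 72 h, 2 of 8 genes fell, beside 11.3% of all tested genes. Mcmdc2 went from 20.2, 16.1, 16.2 and 13.8 CPM to 3.58, 2.51, 6.66 and 4.64 CPM, with a log2 difference of -1.92 (FDR 0.0029, SE 0.39 by limma). Psmc3ip went from 42.0, 32.3, 43.7 and 35.4 CPM to 10.7, 18.4, 24.0 and 19.2 CPM, with a log2 difference of -1.18 (FDR 0.019, SE 0.22 by limma, FDR 0.24 without XY 72 h DMSO replicate 2), and did not pass by DESeq2, with its size factors or without the filter. Neither gene's times overlapped. Set against 0 h, the XY 72 h levels of Psmc3ip (log2 fold change -1.06, FDR 0.051) and Mcmdc2 (-1.37, FDR 0.071) missed the threshold by limma and passed by edgeR, and neither passed by DESeq2. By limma, Psmc3ip passed without XY 0 h replicate 3 (FDR 0.029) or XY 72 h DMSO replicate 5 (0.036) or 6 (0.048), and Mcmdc2 without XY 0 h replicate 2 (0.027). Mnd1 was at 72.0, 69.5, 64.2 and 70.2 CPM in XY 0 h and 107, 108, 110.0 and 126 CPM in XY 24 h DMSO, without overlap, and its 1.66-fold difference did not pass (FDR 1.00 by limma). No listed marker was called between XY 0 h and 24 h. Between 24 h and 72 h Ddx4, Mael, Pdgfra, Cdh5 and Alas2 were called higher and Dppa3 and Pecam1 lower. From 0 h to 72 h Ddx4, Dnd1, Mael, Fst, Pdgfra, Cdh5 and Alas2 were called higher and Pecam1, Hbb-y and Hba-x lower, and the part of these markers was not tested.

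**Figure D3:**
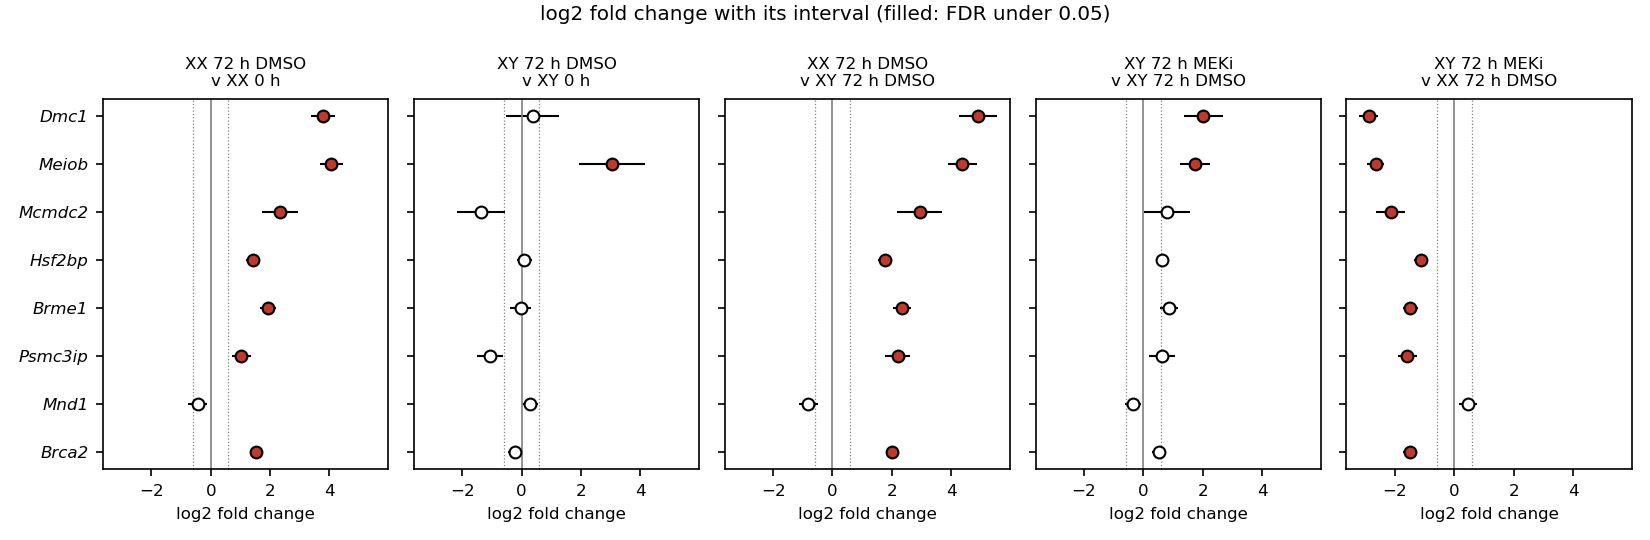
log2 fold change (first group against second) of the 8 tested genes in 5 comparisons, with 95% intervals from the limma fit; filled points passed FDR under 0.05 and dotted lines mark a fold change of 1.5. Mnd1 lies on the opposite side of 0 from Dmc1 in 4 of the 5 panels.

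The third question was whether inhibiting MEK or FGF receptors in XY gonads moved these genes. After 24 h none was called in either treatment by limma, edgeR or DESeq2, and 0 of 8 had an unadjusted p under 0.05 by limma's test against a fold of 1.5. Called shares over all genes in either direction were 0.262% for FGFRi and 0.164% for MEKi. Dmc1 was at 13.9, 10.1, 8.99 and 8.21 CPM in MEKi, 4.34, 12.2, 10.3 and 7.91 CPM in FGFRi and 7.78, 6.77, 11.3 and 11.4 CPM in DMSO, all overlapping. Hsf2bp was the single member without overlap, at 131, 134, 126 and 123 CPM in FGFRi, each below its DMSO libraries (139 to 196 CPM). The log2 difference was -0.43 (FDR 1.00 by limma, and 0.030 by limma's test of no change). The share of all tested genes without overlap is not given for this comparison, and FGFRi and DMSO at 24 h lie in different pools. The MEKi difference in Dmc1 had a log2 interval of -0.64 to 0.79, and that in Meiob -0.73 to 0.71. Over the same 24 h, Stra8, the gatekeeper of meiotic entry, was 4.56-fold higher in MEKi than in DMSO (FDR 2.07e-09 by limma). The index partners of XY 24 h DMSO were XY 72 h MEKi libraries, and with the index share subtracted, which left 548 of its 1111 Stra8 counts, the fold was 8.72 (FDR 2.45e-13 by limma). Blood markers stood at 151 to 383 CPM in 24 h MEKi and 15.5 to 89.2 CPM in 24 h DMSO, with Hbb-y and Hba-x called higher, and their part was not tested.

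After 72 h, Dmc1 and Meiob, 2 of the 8 genes, were higher in MEKi than in DMSO, beside 4.01% of all tested genes. Dmc1 was at 20.8, 21.8, 30.1 and 40.4 CPM, above every XY 72 h DMSO library, 4.06-fold higher (log2 fold change 2.02, SE 0.33, FDR 0.000896 by limma). Meiob was at 42.2, 34.4, 43.8 and 67.0 CPM, 3.31-fold higher (log2 fold change 1.73, SE 0.25, FDR 0.000486 by limma). Both calls held without each library in turn. Brme1, at 67.0, 67.0, 63.2 and 59.2 CPM, lay above its 28.4 to 45.3 CPM in DMSO and was 1.82-fold higher (FDR 0.25 by limma). Hsf2bp (1.56-fold) and Brca2 (1.43-fold) also lay above DMSO without overlap, each with FDR 1.00 by limma. With limma's test of no change and an observed fold over 1.5, 5 genes were called, adding Brme1, Hsf2bp and Psmc3ip. The 4.01% belongs to the test against a fold of 1.5, and the share of all tested genes under this other rule is not given. Mnd1 was at 67.2 ± 8.01 CPM in MEKi and 84.3 ± 12.6 CPM in DMSO and overlapped. Between these groups the endothelial marker Cdh5 (means 1.81 CPM in MEKi and 9.72 CPM in DMSO), the blood marker Alas2 (1.44 and 7.42 CPM) and the germ cell markers Dnd1 (126 and 313 CPM) and Mael (259.9 and 547 CPM) were called lower in MEKi. No Sertoli, granulosa, Leydig or interstitial marker that was tested was called, and the part of the markers was not tested.

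With FGFRi for 72 h, none of the 8 was called by limma, edgeR or DESeq2, with 0 at an unadjusted p under 0.05 and 0.00656% of all tested genes called. Dmc1 was at 6.94, 8.58, 7.35 and 11.6 CPM there, every gene overlapped with DMSO, and no listed marker was called. The log2 intervals were -0.52 to 0.98 for Dmc1 and -0.50 to 0.64 for Meiob. Set directly against FGFRi at the same dose and time, MEKi was higher for Dmc1 (3.46-fold, FDR 0.000115 by limma) and Meiob (3.16-fold, FDR 3.29e-05 by limma), 2 of 8, beside 5.71% of all tested genes. Mcmdc2 was 2.22-fold higher in MEKi (FDR 0.28 by limma), and passed by edgeR (FDR 0.018), not by DESeq2 (FDR 0.19), and by limma without XY 72 h MEKi replicate 4 (FDR 0.021). The 2 comparisons share the MEKi libraries. Against FGFRi, the interstitial marker Nr2f2 was called higher in MEKi (means 25.6 and 5.89 CPM) and Cdh5, Alas2, Dnd1 and Mael lower, and their part was not tested.

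Most levels under MEKi lay below those of XX germ cells at the same time. In XY 72 h MEKi 7 of 8 genes were lower than in XX 72 h DMSO, beside 12.8% of all tested genes. Dmc1 was 7.41-fold lower, Meiob 6.29-fold, Mcmdc2 4.41-fold, Psmc3ip 2.98-fold, Brca2 2.84-fold, Brme1 2.78-fold and Hsf2bp 2.18-fold, with FDR from 1.02e-18 to 2.62e-05 by limma. None of the 7 overlapped, and the share of all tested genes without overlap is not given. Foxl2 and Wt1 were called lower and the germ cell markers Pou5f1, Dppa3 and Dnd1 higher in MEKi than in XX, and their part was not tested. Mnd1 lay higher in MEKi, at a log2 fold change of 0.47 (FDR 1.00 by limma). Stra8 in the same libraries was at 948 ± 186 CPM in MEKi and 696 ± 143 CPM in XX (log2 fold change 0.37, FDR 1.00 by limma). Against XY 0 h, 2 of 8 genes were higher in 72 h MEKi, Dmc1 (5.25-fold, FDR 1.48e-05 by limma) and Meiob (27.4-fold, FDR 1.29e-09 by limma), beside 15.1% of all tested genes. In that comparison Foxl2, Fst and Mael were called higher and Pecam1, Hbb-y, Hba-x, Hba-a1 and Dppa3 lower, and their part was not tested.

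The interaction term, the log2 difference between MEKi and DMSO at 72 h minus its value at 24 h, was 1.95 for Dmc1 (95% interval 0.98 to 2.92, FDR 0.12 by limma) and 1.74 for Meiob (0.86 to 2.61, FDR 0.15 by limma). None of the 8 was called by limma, beside 1.89% of all tested genes, and 2 had an unadjusted p under 0.05. Dmc1 and Meiob were called by edgeR and none by DESeq2. With the index share subtracted, the terms were 1.75 and 1.37. Of the markers Dnd1, Hba-x and Hba-a1 were called with a negative term, and their part was not tested.

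In the order of group means, Dmc1 ran from XX 72 h DMSO (209.8 CPM) through XX 24 h DMSO (44.2 CPM), XY 72 h MEKi (28.3 CPM) and XX 0 h (16.6 CPM) to the other 6 XY groups (5.90 to 10.3 CPM). Only XX 72 h was clear of its neighbour, and every other neighbouring pair overlapped. With the index share subtracted, XX 0 h had a mean of 10.4 CPM for Dmc1, beside 10.2 CPM in XY 24 h MEKi, and lay clear below XY 72 h MEKi. Meiob had the same first 4 groups, with XY 72 h MEKi clear of XX 0 h, and XY 0 h (1.61 CPM) apart below the XY cultures (9.88 to 15.1 CPM). The fourth place of XX 0 h did not hold with the index share subtracted: its Meiob mean became 8.04 CPM, the eighth of the 10, below XY 24 h FGFRi, XY 72 h FGFRi, XY 72 h DMSO and XY 24 h MEKi (10.8 to 14.9 CPM) and overlapping its neighbours. For Brca2, XX 72 h DMSO (688 CPM) and XX 24 h DMSO (324 CPM) stood clear, followed by XY 72 h MEKi (241 CPM), which overlapped XX 0 h (234 CPM). Mnd1 had its 3 highest means in the 24 h XY groups (113 to 139 CPM) and its lowest in XX 72 h DMSO.

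Over the 10 group means on the log2 CPM scale (prior count 2), the genes closest to Dmc1 were Smc1b (Pearson r = 0.994), Fgfr1op2 (0.990), Tesmin (0.989), Brme1 (0.989) and Acer3 (0.987). The closest to Brca2 were Snrnp48 (0.988), Cul1 (0.987), Taf3 (0.982), Gm4349 (0.979) and Uba6 (0.979). Among the 8 genes, Dmc1 had r from 0.60 with Mcmdc2 to 0.99 with Brme1, and -0.65 with Mnd1. The 10 points share libraries, pools and scaling and were searched over all tested genes, so these values are descriptions of likeness.

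Of 22 further recombinase and mediator genes, 4 rose from XX 0 h to XX 72 h and 3 fell (median log2 fold change 0.19, against -0.01 over all genes). Of all 15252 tested genes 2865 rose and 2810 fell, 18.8% for the rise. Rad51ap2, made in meiotic cells, rose 31.7-fold (FDR 6.98e-19 by limma), from 6.84 ± 1.98 to 197 ± 49.1 CPM. Subtracting the index share left 9 of its 65 counts in XX 0 h, so that the size of this fold rests on few counts (394.9-fold by limma after subtraction). Rad51d, Firrm and Zswim7, a SHU complex subunit, rose 2.91-, 2.47- and 2.15-fold. Xrcc3 and Rad54l, of homologous recombination repair, and Bard1, the partner of BRCA1, fell, with log2 fold changes of -1.68, -1.45 and -1.26. At 72 h 7 were higher in XX than XY and 2 lower, led by Rad51ap2 (26.8-fold), Fignl1 (4.27-fold) and Rad51ap1 (3.07-fold), where 2768 of all tested genes were higher and 3482 lower. Rad54l, 1 of the 2 that were lower, was not called with the index share subtracted (FDR 0.058 by limma). In MEKi against DMSO at 72 h 2 of 22 were higher, beside 4.01% of all tested genes: Fignl1 (2.42-fold, FDR 0.0031 by limma) and Brca1 (1.98-fold, FDR 0.046 by limma). Rad51ap2 was at 20.0 ± 6.02 CPM in MEKi and 7.09 ± 1.47 CPM in DMSO and was not called (2.57-fold, FDR 0.12 by limma).

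Of 10 genes of single-strand DNA binding and end resection, 1 rose and 4 fell from XX 0 h to XX 72 h (median -0.66), in the comparison in which 18.8% of all tested genes rose and 2810 of 15252 fell. With the index share subtracted Mre11a also rose (1.81-fold, FDR 0.038 by limma). Rbbp8, which starts resection, rose 2.30-fold, whereas Dna2, Rpa1, Rpa2 and Exo1 fell, with log2 fold changes from -2.82 to -1.02. Rpa1 and Rpa2, subunits of the general single-strand binding complex, thus fell in the comparison in which Meiob rose. In MEKi against DMSO at 72 h 1 of 10 was called, Exo1 (2.93-fold, FDR 2.45e-05 by limma). Of 12 replication and proliferation genes, 8 fell and 1 rose in XX over 72 h (median -1.62), and 11 fell in XY over 72 h (median -1.62). In 72 h MEKi 5 were higher than in 72 h DMSO (median 0.83, against 0.01 over all genes): Ccne1, Mki67, Ccne2, Cdc6 and Pcna. Against XY 0 h, 1 of the 12 was higher in 72 h MEKi and 6 were lower. Over all 15252 tested genes, 2810 fell and 2865 rose in XX, 2325 fell in XY and 611 (4.01%) were higher in 72 h MEKi than in 72 h DMSO. Against XY 0 h, 2300 of all tested genes were higher in 72 h MEKi and 1347 lower. The single riser in XX was Ccne2 (7.77-fold, FDR 9.99e-20 by limma). These lists were chosen with earlier results of these data known.

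**Figure D4:**
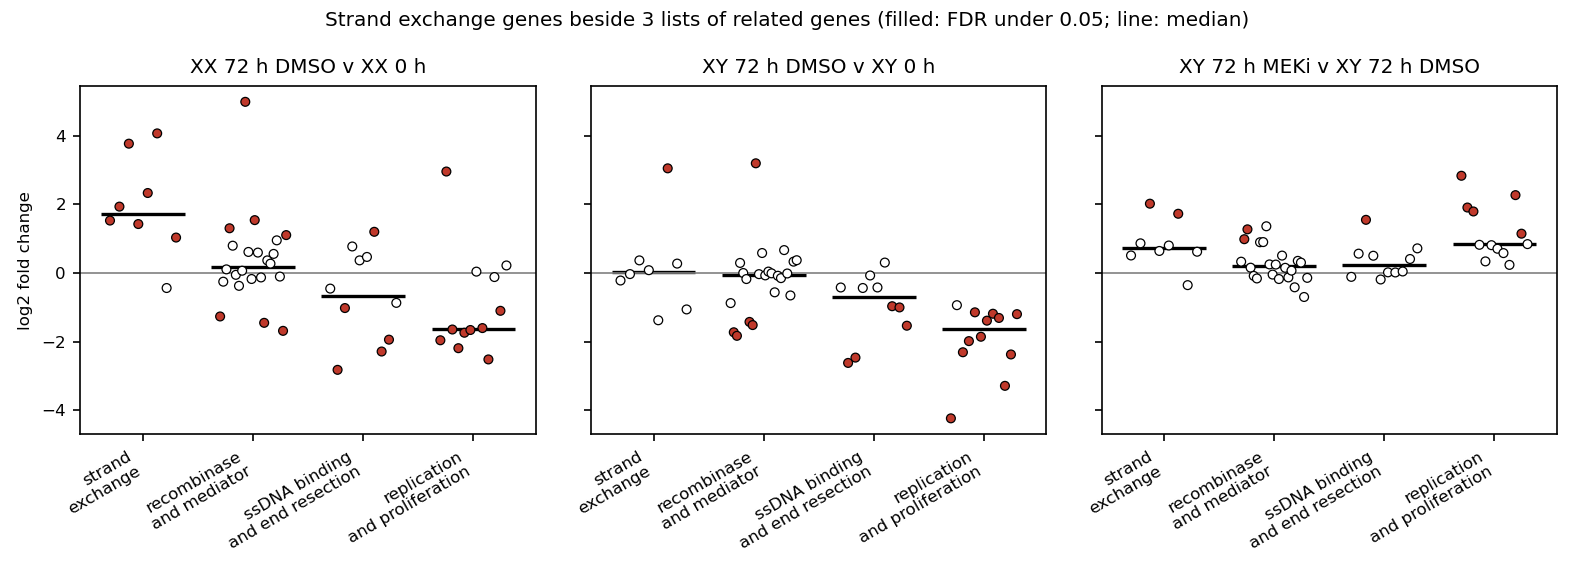
log2 fold change of each tested gene in 4 lists (8 strand exchange, 22 recombinase and mediator, 10 single-strand binding and end resection, 12 replication and proliferation genes) in 3 comparisons, with medians as lines and filled points for FDR under 0.05. In XX over 72 h the strand exchange genes have a median of 1.73 and the replication genes one of -1.62.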

How the data were processed

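RNA was measured in 40 sorted germ cell libraries, 4 in each of 10 groups set by the labels. The values deposited are counts: per the methods, the authors demultiplexed poly(A)-primed reads with scPipe, aligned them to GRCm39 with Rsubread, assigned them to GENCODE exons with strand (release not given in the sources used here), collapsed them by molecular identifier and summed lanes. Somatic libraries were not analysed here.

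The counts were analysed in R 4.3.3 with limma 3.58.1, edgeR 4.0.16 and DESeq2 1.42.0. Genes were filtered with filterByExpr (minimum count 10, minimum total 15), scaled by TMM and fitted over all 40 libraries with voom and sample weights. Each of 18 comparisons was tested with limma's treat against a fold of 1.5, with Benjamini-Hochberg adjustment over 15252 genes. Alternatives were other scaling, no filter, edgeR, DESeq2, limma's test of no change, a replicate block, leaving out each library, and removal of the index share, which was chosen after seeing the data. Scripts were tested on simulated data. Total counts of 1178953 to 5199153 limit the precision of scarce genes, and intervals on counts cover counting error only.

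All 9 members were named, with the genes most like Dmc1 and Brca2 and the called genes with the largest changes in each list. Members and lists were chosen with earlier results of these data known. The labels number the replicates without saying that they are separate cultures, so p-values measure the spread between these libraries.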

Additional observations from a re-analysis of the deposited data

Results flagged for a closer look

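In groups of 4 libraries, a gene was flagged where the gap between an extreme library and its neighbour, divided by the range, was above Dixon's 95% critical value for 4 values. This held in 5 of 84 sets. Chance flags about 1 in 20 for continuous values, a rate that does not apply to the Spata22 sets below. There a single library holds all counts, which fixes the ratio at 1. Meiob had a ratio of 0.858 in XX 24 h DMSO, where replicate 6 was high at 118 CPM, and 0.881 in XX 72 h DMSO, where replicate 7 was low at 235 CPM. Spata22 had a ratio of 1 in XY 24 h FGFRi, XY 72 h FGFRi and XY 72 h DMSO, in each of which a single library held its 1 or 2 counts.

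The change from 0 h to 72 h in DMSO differed between XX and XY by the interaction term for 6 genes, with log2 differences of 3.40 for Dmc1, 3.71 for Mcmdc2, 1.34 for Hsf2bp, 1.96 for Brme1, 2.09 for Psmc3ip and 1.75 for Brca2.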

How the results depend on the processing

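No called value changed sign under any alternative. Counts of members called that moved by over 1.5 times are given here, and smaller moves only for the index share, the replicate block and single libraries left out. Without the filter on low counts, 1 gene rose in XX from 0 h to 24 h (2 in the report) and 1 fell in XY from 24 h to 72 h (2 in the report), and the latter count was also 1 with DESeq2's size factors and with DESeq2. With edgeR, 3 were called for XY 72 h against 0 h (1 in the report), 2 for XX against XY at 0 h (1) and 2 for the MEKi interaction (0). With limma's test of no change and an observed fold over 1.5, the counts were 4 for XX 24 h against 0 h, 3 for XY 24 h against 0 h, 3 for XY 72 h against 0 h, 2 for the sexes at 0 h, 6 for the sexes at 24 h, 5 for 72 h MEKi against DMSO, 5 against FGFRi, 4 against XY 0 h and 5 for the MEKi interaction. Removing the index share gave 3 for XX 24 h against 0 h, adding Hsf2bp. Leaving out 1 library gave 1 to 3 for XX 24 h against 0 h, 0 to 1 for XY 24 h against 0 h, 1 to 2 for XY 72 h against 24 h and 1 to 2 for XY 72 h against 0 h. It also gave 4 to 6 for XX 72 h against 24 h and 6 to 7 for XX 72 h against 0 h. The range was 2 to 3 for the sexes at 24 h and for 72 h MEKi against 72 h FGFRi. Shares of all tested genes called by edgeR, DESeq2 or limma's test of no change are not given, so these counts have no background beside them. The cause of the moves was not tested.

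Same-numbered libraries share only a number: their deviations correlated at -0.12 to 0.15. Over 9 comparisons with 3 or more such pairs, a library correlated best with its own number in 13 of 56 cases. In that count a library enters once per comparison. With the replicate block, 1 member was called for XX 24 h against 0 h (without Dmc1). For XX 72 h against 24 h 2 were called (5 in the report), without Mcmdc2, Brme1 and Brca2. Calls over all genes in these comparisons went from 493 to 234 and from 3393 to 1127. The block gave 6 instead of 7 for XX 72 h against 0 h (without Psmc3ip) and for 72 h MEKi against XX 72 h (without Mcmdc2). Calls over all genes there went from 5675 to 3384 and from 4578 to 1697. The planned estimate of index sharing found 0 genes and gave no value. Depth limits Spata22 most, and Meiob in XY 0 h, with 2 to 7 counts per library.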
